A study of Mus musculus with 9 samples.

Results

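The regions described are the accessible sites assigned to 10 Bmp and activin pathway genes in the mouse cochlear duct: the ligands Bmp2, Bmp4 and Bmp7, the type I receptors Bmpr1a and Bmpr1b, the extracellular antagonist Nog, the activin subunit gene Inhba, the activin antagonist Fst, and the inhibitory Smads Smad6 and Smad7. A peak was assigned to a gene when its summit lay nearer to a start site of that gene than to the start of any other protein-coding transcript, and within 500 kb of it. This gave 531 peaks in 9 lists, which merged into 140 regions out of 69354 in all. The samples were cochlear duct cells sorted by EGFP from heterozygous embryos of the B6;129S-Sox2tm2Hoch/J strain, in which EGFP is knocked in at Sox2. There were 6 samples of Sox2-EGFP+ cells, taken by the study as the prosensory cells (those with the brightest EGFP), with 2 at each of the stages E12, E14.5 and E16. Sox2-EGFP- cells gave 3 samples, of which 1 was from E14.5 and 2 were from E16. Ducts of 1 litter were pooled for each Sox2-EGFP+ sample, cells with low EGFP were left out of the sort, and no treatment was given. Sox2-EGFP- cells hold the nonsensory duct cells of the medial and lateral sides together, and the study discusses otic fibroblasts among them, so the lists give no position along the medial to lateral axis by themselves.

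Bone morphogenetic proteins bind pairs of type I and type II receptors, which phosphorylate Smad1, Smad5 and Smad9, while activins signal through Smad2 and Smad3. In the cochlear duct Bmp4 is made by nonsensory cells on the lateral side, and Bmpr1a and Bmpr1b together are needed for the lateral and prosensory domains to be laid down. Activin A, a dimer of the Inhba product, promotes hair cell differentiation, and follistatin, the product of Fst, binds activin and holds it back.

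Sequences are shown for 7 of the genes, each with 1 region of peaks in 1 cell type alone, and Bmp4 is shown with 1 region of each cell type. At Bmp7, Bmpr1b and Smad6 the regions whose ranks did not overlap between cell types, described below, are others. The choice for each gene was the region with peaks in 1 cell type alone that was found in the most samples, at least 4 of them. Other regions of Bmp2, Bmp7 and Smad6 were in as many samples, and of these the region shown had the single highest rank by -log10 p. Smad7 was left out of the sequences, and Bmpr1a and Nog had no such region in 4 samples. The Bmp4 region at -138 kb, the 1 sequence here from Sox2-EGFP- cells, was chosen after its values were seen. Distances are from the summit to the nearest start, negative upstream, and all sequences are the plus strand of mm9, 100 bp to each side of the summit, except that of Bmpr1b, which is the 200 bp before a start site. Capitals mark the letters of a searched motif on either strand: ACAATGG for Sox factors, AGATAA for Gata factors and GGAATG for Tead factors, which reads CATTCC on the other strand. None of these stretches touches an annotated exon.
Bmp2 -234 kb, chr2:133143602-133143802: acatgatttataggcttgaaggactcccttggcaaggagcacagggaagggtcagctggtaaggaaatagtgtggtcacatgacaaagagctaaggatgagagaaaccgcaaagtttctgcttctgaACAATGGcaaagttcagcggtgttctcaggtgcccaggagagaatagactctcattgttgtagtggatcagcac
Bmp4 -7.71 kb, chr14:47017949-47018149: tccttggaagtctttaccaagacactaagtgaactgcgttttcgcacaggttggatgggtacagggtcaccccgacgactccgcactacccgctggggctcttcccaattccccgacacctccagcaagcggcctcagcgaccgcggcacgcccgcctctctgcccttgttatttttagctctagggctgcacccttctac
Bmp4 -138 kb (Sox2-EGFP- alone), chr14:47147887-47148087: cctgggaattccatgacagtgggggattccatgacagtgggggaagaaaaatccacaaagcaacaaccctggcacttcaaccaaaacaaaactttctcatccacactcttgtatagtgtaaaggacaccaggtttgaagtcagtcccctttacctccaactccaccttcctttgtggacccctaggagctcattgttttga
Bmp7 50.9 kb, chr2:172714785-172714985: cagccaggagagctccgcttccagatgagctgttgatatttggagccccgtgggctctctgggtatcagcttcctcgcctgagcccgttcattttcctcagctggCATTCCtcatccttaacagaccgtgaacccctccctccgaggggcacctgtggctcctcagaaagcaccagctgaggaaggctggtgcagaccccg
Bmpr1b before the downstream start, chr3:141594488-141594687: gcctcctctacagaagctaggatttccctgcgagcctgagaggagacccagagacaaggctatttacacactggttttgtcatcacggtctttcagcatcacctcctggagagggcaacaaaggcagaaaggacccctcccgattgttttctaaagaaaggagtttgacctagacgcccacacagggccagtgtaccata
Inhba 303 kb, chr13:16409294-16409494: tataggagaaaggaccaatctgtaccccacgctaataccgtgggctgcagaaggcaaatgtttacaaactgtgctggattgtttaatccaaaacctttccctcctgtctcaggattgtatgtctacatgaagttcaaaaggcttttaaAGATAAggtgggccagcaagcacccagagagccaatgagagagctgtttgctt
Fst -18.2 kb, chr13:115267210-115267410: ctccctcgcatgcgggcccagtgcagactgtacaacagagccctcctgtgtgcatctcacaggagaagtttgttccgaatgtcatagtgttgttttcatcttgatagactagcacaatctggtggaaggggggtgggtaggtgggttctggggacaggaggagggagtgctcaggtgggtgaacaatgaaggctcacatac
Smad6 -23.3 kb, chr9:63893040-63893240: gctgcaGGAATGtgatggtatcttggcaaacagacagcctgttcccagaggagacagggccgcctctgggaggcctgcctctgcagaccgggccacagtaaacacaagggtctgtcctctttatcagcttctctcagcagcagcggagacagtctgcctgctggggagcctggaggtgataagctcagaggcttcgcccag

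Within 100 bp of the summit, GGAATG was present in 29 of the 140 regions (20.7%), beside 13.0% of all 69354 regions, and AGATAA in 16 (11.4%, beside 8.33%). The Sox letters ACAATGG were present in 8 regions (5.71%, beside 4.85%). All 8 of these had Sox2-EGFP+ peaks alone, as did 15 of the 16 with AGATAA and 20 of the 29 with GGAATG, where over all regions with these letters the shares were 85.4%, 86.2% and 73.0%. Of the letters tied to Bmp and activin signalling, the Smad box pair CAGACAGA was in 4 regions (2.86%, beside 2.14%), the GC-box GGCGCC in 9 (6.43%, beside 7.16%), and the palindrome GTCTAGAC in 0 (beside 0.200%). GGGTGGTC for Gli factors was in 1 region (0.714%, beside 0.448%), CTTTGAT for Lef factors in 1 (0.714%, beside 2.85%), CAGATGG, an E-box, in 3 (2.14%, beside 4.88%), and the Six2 consensus of the study in 1 (0.714%, beside 0.544%). Both strands were searched for every motif, with windows of equal length in all regions. These matches describe letters and say nothing of binding, and a window without a match says only that these letters are not in it.

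The authors deposited 1 peak list for each sample, in which each peak has a -log10 p and q and a fold enrichment over background but no reads, so the sequencing depth behind a peak is not in the lists. The lists held 13817 and 7577 peaks at E12, 66332 and 22962 in Sox2-EGFP+ cells at E14.5, 39314 and 65870 in Sox2-EGFP+ cells at E16, and, in Sox2-EGFP- cells, 23302 at E14.5 and 23848 and 23899 at E16. A site with no peak in a short list is not shown to be closed. The authors kept a peak only where it overlapped one from another sample of its cell type, and 0 regions had a peak in a single sample of a type, so sharing within a type is built in. Values below are ranks of the -log10 p within a list, where rank 1 is the highest, and a region is said to rank higher when its rank is nearer to 1. Samples were placed by their titles, but the separate cell type tags go against the titles for 3 E16 samples, namely Sox2-EGFP+ number 2 and both Sox2-EGFP- samples. Peaks of otic mesenchyme genes within the first 7500 of a list numbered 0 in E16 Sox2-EGFP+ number 2 and 4 in each E16 Sox2-EGFP- sample, beside 0 in both E14.5 Sox2-EGFP+ samples and 3 in the E14.5 Sox2-EGFP- sample, whose tags match. That count runs with the titles of the 3 samples, while peaks of prosensory genes numbered 3 in each of the 4 E16 lists and so set none of them apart. The 0 regions in a single sample of a type were counted by title. By tag, E14.5 Sox2-EGFP+ number 1 and E16 Sox2-EGFP+ number 2 are of different types, and 24583 regions had peaks in these lists alone. Each of those would then be in 1 sample of a type, so the filter of the authors ran with the title of E16 Sox2-EGFP+ number 2. Results are also given without the 3 samples. Both E16 samples numbered 1 came from the first sequencing batch and the other 7 from the second, so the first batch compares 1 sample with 1, too few for a value of its own.

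The 10 genes had 13 to 132 of their regions in each list. Sox2-EGFP+ samples had 18 and 13 regions at E12, 132 and 40 at E14.5 and 74 and 124 at E16, and Sox2-EGFP- samples had 32 at E14.5 and 36 and 37 at E16. The 2 longest lists had the most, and peaks of these genes were between 0.145% and 0.201% of each list. All 10 genes had a peak in each E14.5 and E16 list, and 8 of them in each E12 list.

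Of the 140 regions, 100 (71.4%, 95% Wilson interval 63.5% to 78.3%, counting error only) had peaks in Sox2-EGFP+ samples alone, beside 65.5% of all regions. Peaks of both cell types were in 32 regions (22.9%, beside 28.8%), and 8 regions (5.71%, beside 5.63%) had peaks in Sox2-EGFP- samples alone. In full lists both shares lay near those of all regions. Sox2-EGFP+ peaks alone made up 76.6% of the regions without the 3 samples whose tags go against their titles, and 60.8% without the 2 longest lists, both Sox2-EGFP+. In 44 regions (31.4%, beside 35.4%) the peaks came from those 2 lists alone.

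The genes had 4.39 regions per 100 kb of sequence nearest to their starts, beside 2.91 over all genes. Smad7 had 28 regions, Bmpr1b 25, Smad6 21, Bmp2 16, Bmp7 15, Bmp4 10, Nog and Inhba 8 each, Fst 6 and Bmpr1a 3, where the median gene with a region had 2.00. With starts of any transcript, not of protein-coding ones alone, 69 regions were left, 1 of them at Bmp4 and 3 at Bmp2. Per 100 kb the order was led by Smad6 (11.7), Smad7 (8.22) and Bmp7 (7.00), and Inhba (1.58) and Bmp2 (1.99) had the fewest. The regions lay mostly away from starts: 72 were intergenic, 52 in introns of these or other genes, 4 over coding exons and 2 over untranslated exons. The other 10 lay over a start site (7.14%, beside 21.2% of all regions). Of the 10 over a start, 9 had peaks of both cell types and 1 had Sox2-EGFP+ peaks alone, while 58 of the 72 intergenic regions had Sox2-EGFP+ peaks alone. Over all regions, 82.4% of 14725 over a start had peaks of both cell types and 78.7% of those away from starts had Sox2-EGFP+ peaks alone, beside 76.2% here.

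**Figure D1:**
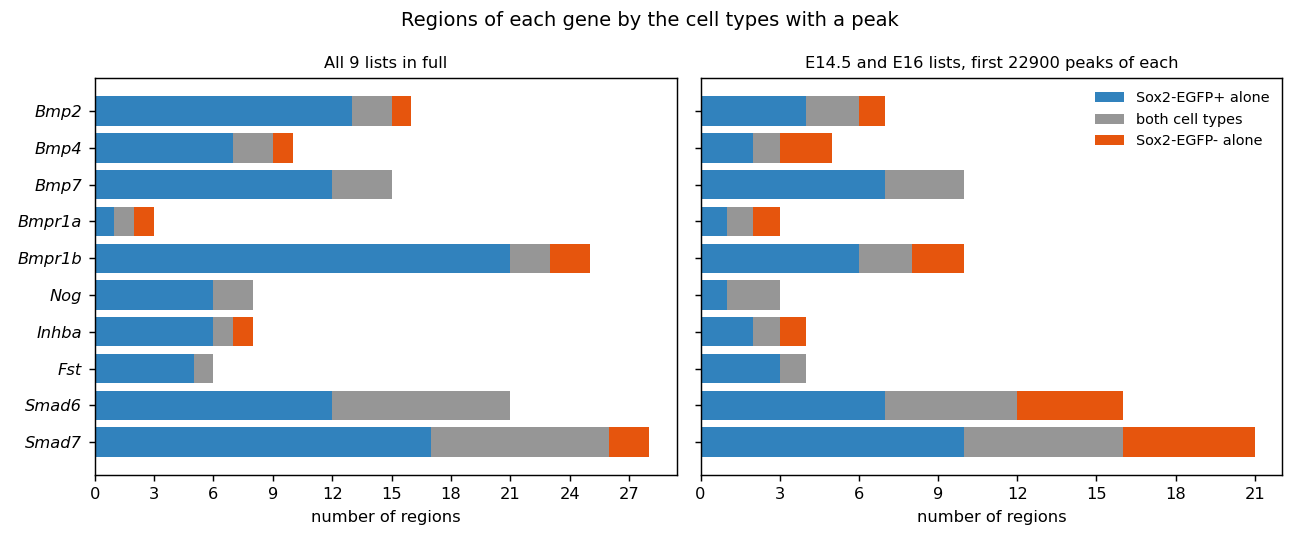
Number of regions of each gene (horizontal axis) with peaks in Sox2-EGFP+ samples alone, in both cell types or in Sox2-EGFP- samples alone (bar colours), for all 9 lists in full and for the first 22900 peaks of each E14.5 and E16 list. In full lists 100, 32 and 8 of the 140 regions fell in these classes, and at equal length 43, 24 and 16 of 83.

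At equal list length the share with Sox2-EGFP+ peaks alone lay above that of all regions. With E14.5 and E16 lists limited to their first 22900 peaks, the right side of the stacked bars, 83 regions were left: 43 with Sox2-EGFP+ peaks alone (51.8%, Wilson interval 41.2% to 62.2%, beside 37.9% of 38395 regions), 24 with both (28.9%, beside 45.8%) and 16 with Sox2-EGFP- peaks alone (19.3%, beside 16.3%). The same 7 lists in full gave 71.4%, beside 65.5%. With all 9 lists limited to 7500 peaks, 16 of 22 regions had Sox2-EGFP+ peaks alone (72.7%, Wilson interval 51.8% to 86.8%), beside 34.3% of 15301. Without regions over a start, of which these genes had a smaller share than all genes, the direction was the reverse in full lists (76.2% beside 78.7%), and at equal length the values were 57.5% beside 53.8% at 22900 (interval 46.1% to 68.2%) and 84.6% beside 64.1% at 7500 (interval 57.8% to 95.7%). The intervals hold counting error only, and regions of 1 gene are not independent. At 22900 peaks Smad7 had 10, 6 and 5 regions in these classes, Smad6 7, 5 and 4, Bmpr1b 6, 2 and 2, and Bmp4 2, 1 and 2. Bmp7 had 7, 3 and 0, Fst 3, 1 and 0, and Nog 1, 2 and 0. Bmp7, Fst and Nog were thus the genes without a region of Sox2-EGFP- peaks alone at either length, although Nog had 1 when regions were summit windows of 100 bp to each side.

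Cell types were compared first over all 9 samples, 6 against 3, with every list limited to the common list length of 7500, at which 22 of the 140 regions could be tested. The ranks of the cell types did not overlap in 0 of these 22 with Sox2-EGFP+ higher (beside 1.58% of 15301 regions tested) and in 0 with Sox2-EGFP- higher (beside 2.22%). A two-sided exact permutation test on mean log2 rank gave an adjusted p under 0.05 for 0 of the 22 and for 0 of all regions, and an unadjusted p under 0.05 for 1 of the 22, beside 5.87% of all. The smallest p that the 84 splits allow is 0.0119. Without the 3 samples whose tags go against their titles, 5 samples were set against 1, and 21 regions could be tested. The Smad7 region at -24.8 kb ranked higher in all 5 Sox2-EGFP+ samples (beside 4.03% of all regions tested), and the first start of Bmpr1b and the Smad6 region at 126 kb in the 1 Sox2-EGFP- sample (beside 17.2%). Within the second batch, 5 samples against 2, the counts were 0 and 1 of 22, beside 2.82% and 6.53%, and the 1 was again the Smad6 region at 126 kb. Both calls of this Smad6 region rest on an E14.5 Sox2-EGFP- rank of 7499, just inside the length of 7500.

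At E14.5 and E16, 4 samples against 3 with lists limited to 22900, 83 regions could be tested. Ranks did not overlap in 6 with Sox2-EGFP+ higher, 1 each at Bmp2, Bmp7, Inhba, Fst, Smad6 and Smad7, beside 8.50% of all 38395 regions tested. In 5 regions, at Bmp4, Bmpr1b, Smad7 and, with 2, Smad6, Sox2-EGFP- samples ranked higher, beside 10.6%. Both shares were below those of all regions, so these calls describe single regions and not the group of genes. The exact permutation test gave an unadjusted p under 0.05 for 6 of the 83 (beside 12.3% of all) and an adjusted p under 0.05 for 0 of them, with 0.0286 the smallest p that 35 splits allow and 0.233 the smallest adjusted p. None of the 11 lay over a start site. Without the 3 samples with opposite tags, 3 Sox2-EGFP+ samples and 1 Sox2-EGFP- sample are left at these stages, and their order in the 11 regions is the same by construction.

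Samples of the same stage and number make 3 pairs of cell types, number 2 at E14.5 and numbers 1 and 2 at E16, and 79 regions could be compared within them at the length of 22900. Sox2-EGFP+ ranked higher in every pair in 8 regions (beside 12.7% of 37113 regions) and Sox2-EGFP- in 10 (beside 17.6%). These hold the 11 regions above by construction. The other 7 were the start of Bmpr1a and the Smad7 region at -24.8 kb, higher in Sox2-EGFP+ cells, and, higher in Sox2-EGFP- cells, the start of Fst, the first start of Bmpr1b, the Bmp4 region at 3.04 kb and the Smad6 regions at 41.5 kb and -38.3 kb. With 3 pairs an exact permutation test over signs cannot go below a p of 0.250, and only the E14.5 pair has no sample with an opposite tag.

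Within Sox2-EGFP+ cells, both E12 samples ranked higher than all 4 later samples in 3 of 21 regions tested, beside 6.52% of 13549, and the later samples ranked higher in 0, beside 7.56%. The 3 were the Fst region at -18.2 kb and the start regions of Inhba and Smad7. With 15 splits an exact permutation test of 2 samples against 4 cannot go below 0.0667, and 0 regions had an unadjusted p under 0.05. The E12 lists were the shortest, and with ranks taken as a share of list length 0 of 132 regions ranked higher at E12 (beside 0.0275% of all) and 26 ranked higher later (beside 21.7%). Unlisted regions were put last on that scale. A region in all 4 later lists and in neither E12 list, such as Bmp2 at -234 kb, thus counts as higher later whatever its ranks. Without the 3 samples with opposite tags, 4 of 20 ranked higher at E12 (beside 7.51%), the fourth being the first start of Bmpr1b. The part of list length in the stage difference was not tested.

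The ligand genes come first. Bmp2, a secreted ligand, had 16 regions, 13 of them with Sox2-EGFP+ peaks alone, and more regions than 97.0% of genes with a region. Its region at -234 kb (chr2:133143235-133144154), whose sequence above holds the Sox letters, ranked 13422 and 15803 at E14.5 and 17014 and 17775 at E16 in Sox2-EGFP+ lists. It had no peak at E12 or in a Sox2-EGFP- list, so the cell types did not overlap at E14.5 and E16 (log2 rank difference 0.53, exact permutation p = 0.0286, adjusted p = 0.233). Differences are the mean log2 rank in Sox2-EGFP- samples less that in Sox2-EGFP+ samples, positive where Sox2-EGFP+ ranks higher. The start region of Bmp2 (chr2:133377714-133378970) ranked 4960 in 1 E12 sample, 20718 and 16984 at E14.5 and 13482 and 21115 at E16 in Sox2-EGFP+ cells, against 15125, 14570 and 13015 in Sox2-EGFP- cells. Those ranks overlapped. A region at 232 kb had peaks in the 2 E16 Sox2-EGFP- lists alone, at ranks 20397 and 17761, and both of those samples carry the opposite tag.

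Bmp4, the lateral ligand of the duct, had 10 regions and none over either of its start sites. The nearest was in its intron at 3.04 kb (chr14:47006719-47007416), where Sox2-EGFP- samples ranked 13169 at E14.5 and 11114 and 17448 at E16. In Sox2-EGFP+ samples the same region ranked 4323 in 1 E12 sample, 14453 in 1 E14.5 sample, and 11980 and 44511 at E16. The cell types overlapped there, and 2 Sox2-EGFP+ lists had no peak, but within each of the 3 pairs Sox2-EGFP- ranked higher (mean paired log2 rank difference -0.43). The region at -138 kb (chr14:47147582-47148085) had peaks in all 3 Sox2-EGFP- samples, at ranks 21591, 20246 and 16438, and in no Sox2-EGFP+ sample. It was thus the clearest Sox2-EGFP- region of a ligand, although low in each list (log2 rank difference -0.25, exact permutation p = 0.0286, adjusted p = 0.233). Without the 3 samples whose tags go against their titles, its single Sox2-EGFP- value at E14.5 is left. That peak does not reach the summit of the merged region, by which regions were looked up, so no call was read there. The same held without E16 Sox2-EGFP- number 2 alone, although the E14.5 and E16 number 1 peaks remain. With starts within 100 kb or of any transcript, the site was no longer assigned to Bmp4. The intergenic region at -7.71 kb had the opposite pattern, with Sox2-EGFP+ ranks of 42154 and 20404 at E14.5 and 30169 and 30895 at E16 and no Sox2-EGFP- peak. Of these 4 ranks only 20404 lies within the first 22900 peaks, so at equal length the region was in 1 sample.

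Bmp7, a ligand that can pair with other Bmp subunits, had 15 regions, 12 with Sox2-EGFP+ peaks alone and 3 with both. Its region at -18.4 kb (chr2:172783746-172784549) ranked 7412 and 21963 at E14.5 and 12911 and 9755 at E16, with no peak at E12 or in Sox2-EGFP- cells. The cell types did not overlap at E14.5 and E16 (log2 rank difference 0.94, exact permutation p = 0.0571, adjusted p = 0.313). The intronic region at 50.9 kb, shown above with its Tead letters, ranked 3878 in 1 E12 sample, 12176 in 1 E14.5 sample and 32176 and 31128 at E16, and was Sox2-EGFP+ alone. As a share of list length these were 0.281, 0.184, 0.818 and 0.473, so the E16 samples ranked lower than the earlier samples with a peak on that scale too. The other E12 sample and the other E14.5 sample had no peak there. The start region (chr2:172765405-172766449) ranked 6171 in 1 E12 sample, 19274 in 1 E14.5 sample and 10997 and 15475 at E16, against 14697, 12788 and 11440 in Sox2-EGFP- cells, which overlap. At 109 kb, Sox2-EGFP+ ranks of 24886, 17289, 18451 and 20643 overlapped with Sox2-EGFP- ranks of 21309 and 12942, both at E16.

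Among the receptors, Bmpr1a and Bmpr1b encode type I receptors that overlap in function in the duct. Bmpr1a had 3 regions, 1 in each class. Its start region (chr14:35315131-35316657) ranked 11464 in 1 E12 sample, 21001 and 6856 at E14.5 and 4053 and 8983 at E16 in Sox2-EGFP+ cells, and 8679, 5159 and 15687 in Sox2-EGFP- cells. High and low ranks occurred in both cell types, so they overlapped, while within each of the 3 pairs Sox2-EGFP+ ranked higher (mean paired log2 rank difference 0.50). The intronic region at 20.5 kb had peaks in the 2 longest lists alone, at ranks 48437 and 18788. A region at -4.97 kb had peaks in both E16 Sox2-EGFP- lists alone, at ranks 19263 and 17368.

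Bmpr1b had 25 regions, more than 99.4% of genes with a region, and 21 had Sox2-EGFP+ peaks alone, of which 13 rested on the 2 longest lists. Its start sites differed. At the first start (chr3:141831323-141832583, summit at -0.0830 kb) every list had a peak, with Sox2-EGFP+ ranks of 4876 and 4568 at E12, 6347 and 6843 at E14.5 and 5809 and 4120 at E16. Sox2-EGFP- ranks there were 4182 at E14.5 and 2275 and 2114 at E16. Both E16 Sox2-EGFP- samples ranked above every Sox2-EGFP+ sample, and the E14.5 sample fell below the best of them by a small margin, so the groups overlapped. This was the 1 region of the 22 with an unadjusted p under 0.05 (log2 rank difference -0.97, exact permutation p = 0.0238, adjusted p = 0.617), and the samples that set it apart are ones whose tags go against their titles. Without those 3 samples the E14.5 Sox2-EGFP- sample ranked above all 5 Sox2-EGFP+ samples left, and the ranks also did not overlap when the E14.5 Sox2-EGFP- sample or E16 Sox2-EGFP+ number 2 alone was left out. Within each of the 3 pairs Sox2-EGFP- ranked higher (mean paired log2 rank difference -1.01), and in 7 of 24 settings the region was called in that direction.

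The downstream start of Bmpr1b (chr3:141594287-141594808), whose upstream sequence is shown, was the only start region of the 10 with no Sox2-EGFP- peak. Sox2-EGFP+ samples ranked 11494 and 6879 at E12, 27319 in 1 E14.5 sample, and 22591 and 42453 at E16. As a share of list length these ranks were 0.832 and 0.908 at E12, 0.412 at E14.5 and 0.575 and 0.644 at E16. Among Sox2-EGFP+ samples with a peak, the E12 samples thus come first by rank and last by share, and the other E14.5 sample had no peak. No stage call was made over all 6 samples, and in 2 of 21 settings, each without 1 of the E12 samples, the other E12 sample ranked higher. An intronic region at -81.8 kb also had Sox2-EGFP+ peaks alone, at 3171 in 1 E12 sample, 11328 in 1 E14.5 sample and 25891 and 25021 at E16, as did a region at -74.0 kb, at 10659 in 1 E12 sample, 11826 and 3683 at E14.5 and 13696 in 1 E16 sample. Other regions of the gene had the reverse pattern. Regions at 112 kb, in an intron of Unc5c, and at 77.2 kb, in an intron of Bmpr1b, had peaks in all 3 Sox2-EGFP- lists and no Sox2-EGFP+ list, at ranks of 20207, 18999 and 23210 and of 11684, 23068 and 15349. In both, 1 Sox2-EGFP- rank lies past 22900, so neither was called at that length. A coding exon at 68.5 kb (chr3:141525613-141526148) ranked 8999, 12277 and 12125 in Sox2-EGFP- cells and 17444, 12830, 17018 and 27892 in E14.5 and E16 Sox2-EGFP+ cells. All 3 Sox2-EGFP- samples were above all 4 at these stages (log2 rank difference -0.64, exact permutation p = 0.0571, adjusted p = 0.313). With all stages and without E12 number 2, they were above all 5 Sox2-EGFP+ samples left.

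Nog, which encodes noggin, an antagonist that binds Bmp ligands outside the cell, had 8 regions, 6 with Sox2-EGFP+ peaks alone, and 4 of its regions rested on the 2 longest lists. Its start region (chr11:89162884-89164468) had no E12 peak and ranked 37112 and 20488 at E14.5 and 24014 and 20298 at E16 in Sox2-EGFP+ cells, against 17021, 22964 and 16016 in Sox2-EGFP- cells. All of these were low, and they overlapped. The region at 4.12 kb ranked 26455, 16919, 18397 and 53993 in Sox2-EGFP+ cells and 15030 and 13465 in the E16 Sox2-EGFP- samples. The region at -12.0 kb had Sox2-EGFP+ peaks alone, at 31986, 19009 and, in 1 E16 sample, 15007. Nog had no region in the first 7500 peaks of any list, and no region called between cell types over all 9 samples or at E14.5 and E16. At E16 alone, both Sox2-EGFP- samples ranked higher than both Sox2-EGFP+ samples at 4.12 kb.

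**Figure D2:**
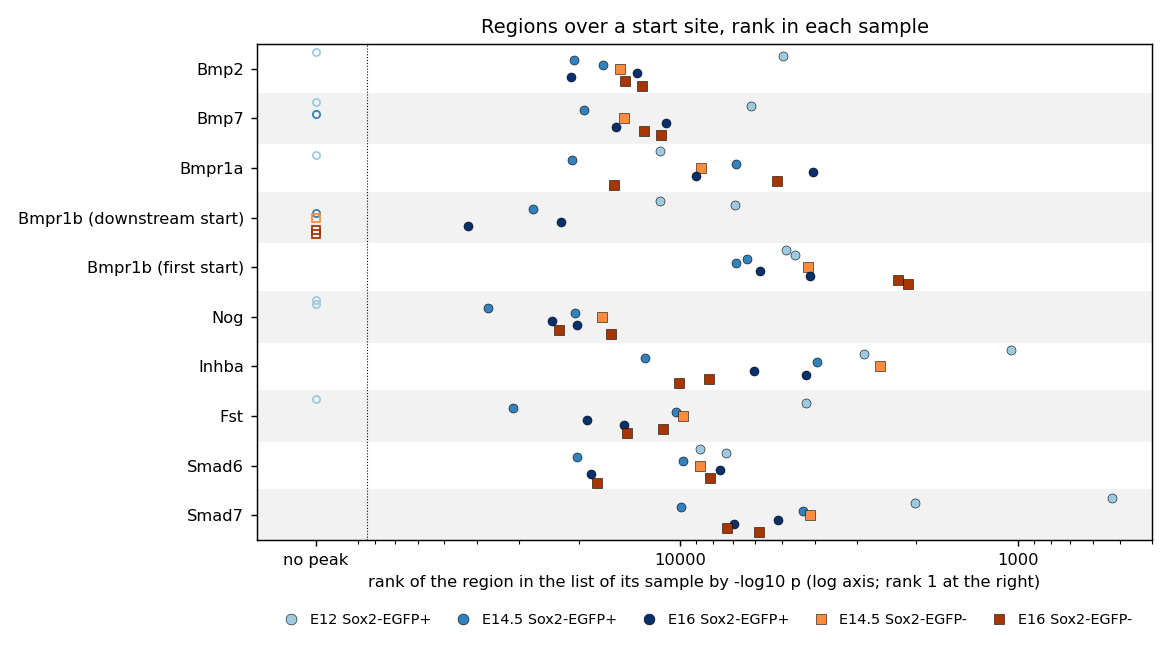
Rank by -log10 p of the 10 regions over a start site (horizontal log axis, rank 1 to the right, open symbols for no peak) in each of 9 samples, coloured by stage and cell type. Only the downstream start of Bmpr1b has no Sox2-EGFP- peak, and at Inhba and Smad7 both E12 samples rank above all 4 later Sox2-EGFP+ samples.

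The plot of start regions shows circles and squares mixed at most genes, and no region over a start was called between cell types over all 9 samples or at E14.5 and E16. In other settings the first start of Bmpr1b was called higher in Sox2-EGFP- samples in 7 of 24 and the start of Fst in 2, and the starts of Bmpr1a (within pairs) and Inhba (E16 alone) higher in Sox2-EGFP+ samples in 1 each. The start regions of Bmpr1b, Inhba, Smad6 and Smad7 and a Smad7 region at -24.8 kb were the 5 regions with a peak in all 9 lists (3.57% of the 140, beside 7.31% of all regions).

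On the activin side, Inhba, which encodes the subunit of activin A, had 8 regions, 6 with Sox2-EGFP+ peaks alone. Its start region (chr13:16103364-16104616) ranked 1053 and 2862 at E12, 12712 and 3931 at E14.5 and 6034 and 4257 at E16 in Sox2-EGFP+ cells. Both E12 samples ranked higher than the 4 later ones (log2 rank difference, later less E12, 1.60, exact permutation p = 0.0667, adjusted p = 0.713). As a share of list length the stages overlapped, at 0.0762 and 0.378 at E12 and from 0.0646 to 0.192 later. Sox2-EGFP- cells ranked 2572 at E14.5 and 8248 and 10090 at E16. The E14.5 sample thus ranked above and the E16 samples below the Sox2-EGFP+ samples of their stage, and 3 of these 4 E16 samples carry opposite tags.

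Far downstream, at 303 kb (chr13:16409186-16409807), an intergenic region with the Gata letters in its sequence ranked 5439 in 1 E12 sample, 12047 and 17964 at E14.5 and 21745 and 14664 at E16 in Sox2-EGFP+ cells. It had no Sox2-EGFP- peak, and the cell types did not overlap at E14.5 and E16 (log2 rank difference 0.50, exact permutation p = 0.0571, adjusted p = 0.313). A coding exon of Inhba at 2.97 kb had peaks in both E16 Sox2-EGFP- lists alone, at ranks 21313 and 12838. With 1.58 regions per 100 kb, Inhba had the sparsest locus of the 10.

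Fst, whose product follistatin binds activin outside the cell, had 6 regions, 5 with Sox2-EGFP+ peaks alone and 0 with Sox2-EGFP- peaks alone. The region at -18.2 kb (chr13:115266759-115267778) ranked 1415 and 1297 at E12, 4810 and 5313 at E14.5 and 11371 and 8025 at E16 in Sox2-EGFP+ cells, and no Sox2-EGFP- list held it. Of the 140 regions, it alone was in every Sox2-EGFP+ list and in no Sox2-EGFP- list (0.714%, beside 0.794% of all regions). Its rank was highest at E12 and lowest at E16, but as a share of list length the values overlapped between stages, at 0.102 and 0.171, 0.0725 and 0.231, and 0.289 and 0.122. Its -log10 p was 14.8 and 11.9 at E12, 73.6 and 14.6 at E14.5, and 24.5 and 26.6 at E16, and its fold enrichment 8.42 and 7.37 at E12, 12.9 and 6.10 at E14.5 and 9.27 in the E16 sample numbered 1. The fold values did not fall with stage as the ranks did.

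At E14.5 and E16 the Fst region had the largest Sox2-EGFP+ difference among the called regions (log2 rank difference 1.72, exact permutation p = 0.0286, adjusted p = 0.233), with all 4 samples above all 3. Over all 9 samples at the length of 7500 it was not called (difference 1.01, exact permutation p = 0.202, adjusted p = 0.892), because both E16 Sox2-EGFP+ ranks lie past 7500 and tie with the unlisted samples. Both E12 samples ranked above the 4 later ones (difference, later less E12, 2.18, exact permutation p = 0.0667, adjusted p = 0.713). Without E12 number 2, whose list is the shortest and sets that length, it was called over the other 8 samples. Its cell type call was made in 6 of 24 settings and its stage call in 20 of 21. The E14.5 samples, whose tags and titles match, have the same order as the E16 samples by construction, since the call takes in both stages. The start region of Fst (chr13:115248469-115249867) ranked 4255 in 1 E12 sample, 31403 and 10302 at E14.5 and 18878 and 14717 at E16 in Sox2-EGFP+ cells, and 9856, 11289 and 14442 in Sox2-EGFP- cells. It overlapped between cell types, unlike the upstream region, and Sox2-EGFP- ranked higher within each of the 3 pairs (mean paired log2 rank difference -0.28).

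**Figure D3:**
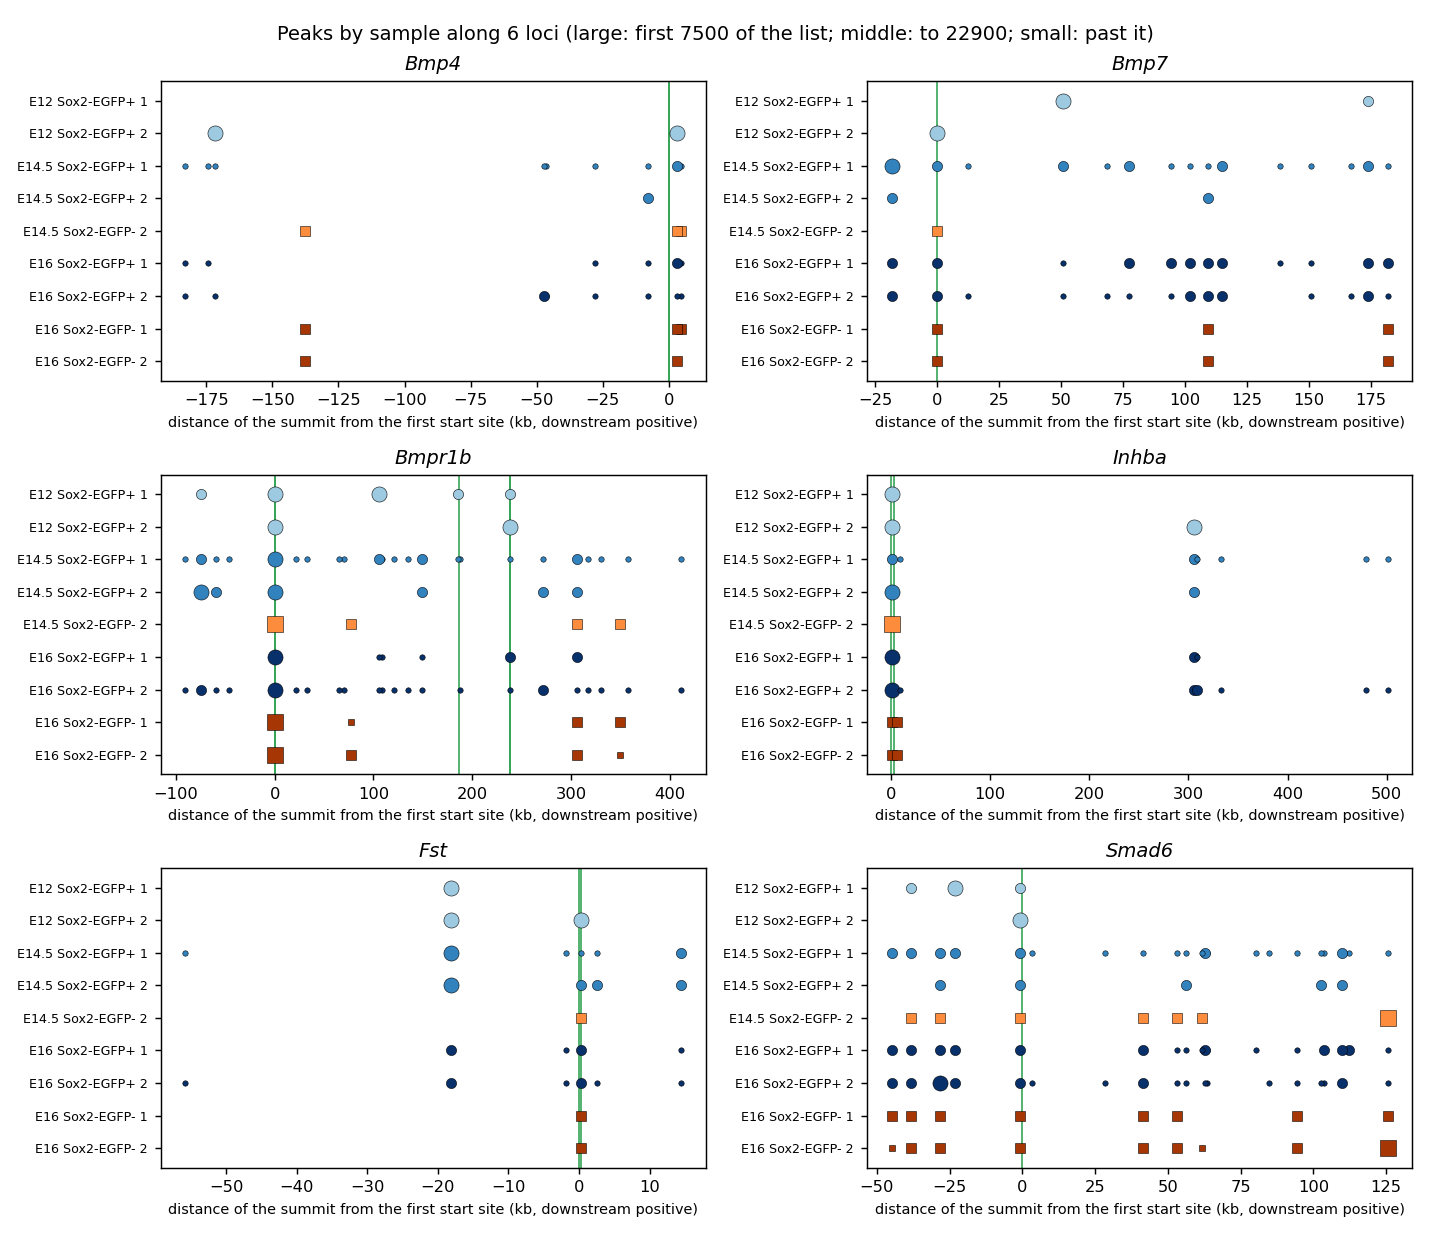
Peaks of each sample (vertical axis) by distance of the summit from the first start site of the gene (horizontal axis, kb, downstream positive) at 6 loci, with larger symbols for the first 7500 peaks of a list, middle ones to 22900 and small ones past it, and green lines at start sites. At Fst the region at -18.2 kb has a symbol in all 6 Sox2-EGFP+ samples and none in the 3 Sox2-EGFP- samples.

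The maps of 6 loci show the small symbols of the 2 longest lists between starts, as at Bmpr1b and Bmp7, and the columns of symbols shared by both cell types near starts. Distances in the maps are from the first start, and those in the text from the nearest. In the Bmp4 map the 3 squares at -138 kb stand alone.

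The inhibitory Smads, which are induced by the pathway and block its receptors, had 9 regions each with peaks of both cell types, the highest counts of the 10 genes. As shares these were 42.9% of the regions of Smad6 and 32.1% of those of Smad7, beside 28.8% of all regions and 33.3% at Bmpr1a. Smad6, which acts chiefly on Bmp signals, had 21 regions and the highest density of the 10 genes. Its start region (chr9:63869643-63871229) ranked 8723 and 7338 at E12, 20259 and 9821 at E14.5 and 7631 and 18368 at E16 in Sox2-EGFP+ cells, and 8776, 8184 and 17603 in Sox2-EGFP- cells. These overlapped throughout.

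Distal regions of Smad6 divided by cell type in both directions. At 126 kb (chr9:63744059-63744698), Sox2-EGFP- samples ranked 7499 at E14.5 and 14891 and 5916 at E16, and Sox2-EGFP+ samples 36915 in 1 E14.5 sample and 32416 and 49292 at E16. All 3 Sox2-EGFP- samples were higher, with the largest difference among the regions called in that direction (log2 rank difference -1.39, exact permutation p = 0.0286, adjusted p = 0.233). The region was called in 6 of 24 settings, among them over all stages without the 3 samples with opposite tags and without E16 Sox2-EGFP- number 1. Both of these calls rest on the E14.5 rank of 7499, which lies just inside the common length of 7500. At 53.2 kb, in an intron, Sox2-EGFP- ranks of 14049, 14935 and 13286 stood above Sox2-EGFP+ ranks of 51334, 33796 and 23182 (log2 rank difference -0.70, exact permutation p = 0.0286, adjusted p = 0.233). At 110 kb (chr9:63759655-63760257), Sox2-EGFP+ samples ranked 11037, 21204, 20050 and 14146 and Sox2-EGFP- samples had no peak (log2 rank difference 0.51, exact permutation p = 0.0857, adjusted p = 0.398). The regions at 126 kb and 110 kb were both intergenic and of opposite direction. The region at -23.3 kb, shown with its Tead letters, had Sox2-EGFP+ peaks alone, at 4345 in 1 E12 sample, 8647 in 1 E14.5 sample and 22627 and 22396 at E16.

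Smad7, which blocks both Bmp and activin receptors, had 28 regions, more than 99.6% of genes with a region. Those from -173 kb to -88.6 kb lay in introns of Dym, and those from 64.7 kb to 145 kb lay within Ctif. The Smad7 start region ranked 526 and 2016 at E12, 9990 and 4323 at E14.5 and 5155 and 6949 at E16 in Sox2-EGFP+ cells. In Sox2-EGFP- cells it ranked 4129, 7257 and 5834. The rank of 526 was the highest of any region of the 10 genes, and both E12 samples were above the 4 later ones (log2 rank difference, later less E12, 2.50, exact permutation p = 0.0667, adjusted p = 0.713). As a share of list length they overlapped, at 0.0381 and 0.266 at E12 and from 0.105 to 0.188 later. The cell types overlapped. A peak at -24.8 kb was in every list, with Sox2-EGFP+ ranks from 2710 to 5374 and Sox2-EGFP- ranks of 9763, 11836 and 4116. The last of these, in an E16 sample, lay among the Sox2-EGFP+ values, so this region overlapped too, and it was called higher in Sox2-EGFP+ cells when that sample, number 2, was left out. Sox2-EGFP+ also ranked higher within each of the 3 pairs (mean paired log2 rank difference 1.01).

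Further from the Smad7 starts, the region at -72.0 kb ranked 15764, 15146, 18149 and 10544 in E14.5 and E16 Sox2-EGFP+ samples and had no Sox2-EGFP- peak (log2 rank difference 0.65, exact permutation p = 0.0571, adjusted p = 0.313). The region at 35.9 kb ranked 14658, 9184 and 13813 in Sox2-EGFP- samples and 20628, 18720, 17621 and 52551 in Sox2-EGFP+ samples (log2 rank difference -0.69, exact permutation p = 0.0286, adjusted p = 0.233). These called regions lay on opposite sides of the gene, but regions with Sox2-EGFP+ peaks alone lay on both sides, as at 87.4 kb and 145 kb downstream. An intronic region at 8.71 kb had peaks in the 3 Sox2-EGFP- lists alone, at 22526, 23271 and 19266, and a region at 40.4 kb in 2 of them, at 21155 and 17895. The first was the fourth region of the 140 (2.86%, beside 2.34% of all regions) with all 3 Sox2-EGFP- samples and no Sox2-EGFP+ sample, after those of Bmp4 at -138 kb and Bmpr1b at 112 kb and 77.2 kb.

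**Figure D4:**
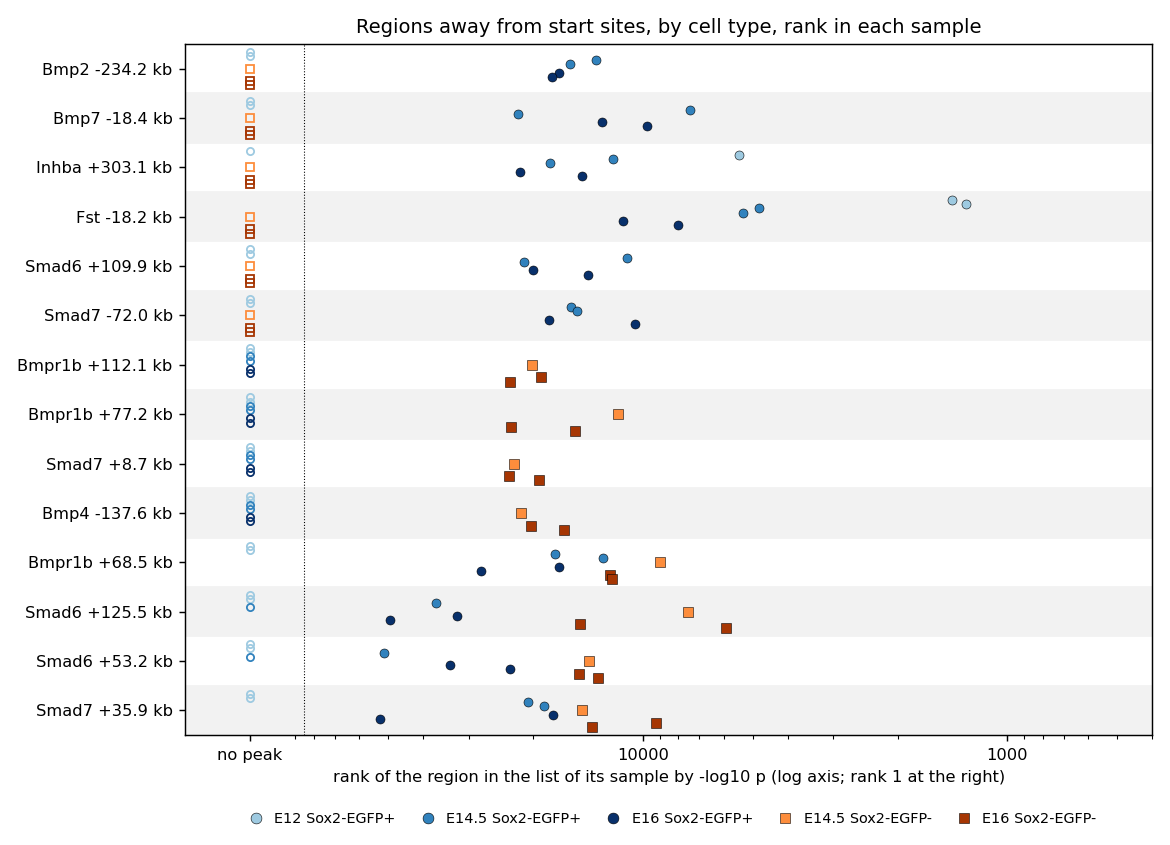
Rank by -log10 p (horizontal log axis, rank 1 to the right, open symbols for no peak) in each of 9 samples for the 11 regions called between cell types at E14.5 and E16 and the other 3 regions with peaks in all 3 Sox2-EGFP- samples and no Sox2-EGFP+ sample. The Fst region at -18.2 kb ranks from 1297 to 11371 in Sox2-EGFP+ samples, and the Smad6 region at 126 kb from 5916 to 14891 in Sox2-EGFP- samples.

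In the plot of regions away from starts, the top 6 have Sox2-EGFP+ symbols to the right of the dotted line and open Sox2-EGFP- symbols, and the last 4 have peaks of both cell types at separate ranks. The 4 between them have Sox2-EGFP- peaks alone, at ranks from 11684 to 23271.

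Other genes of the pathway, taken from a list of 43 genes of which 41 had a region (Gdf5 and Inha had none), gave 302 regions, 197 with Sox2-EGFP+ peaks alone (65.2%, beside 65.5% of all regions), 83 with both and 22 with Sox2-EGFP- peaks alone (7.28%, beside 5.63%). Over all 9 samples, 3 of 72 regions tested ranked higher in every Sox2-EGFP+ sample, at the co-receptor genes Rgma and Rgmb and the target Hey1, and 1 in every Sox2-EGFP- sample, at the modulator gene Bmper (beside 1.58% and 2.22% of all regions). At E14.5 and E16, 18 of 173 ranked higher in Sox2-EGFP+ (10.4%, beside 8.50%) and 16 in Sox2-EGFP- samples (9.25%, beside 10.6%). By role these were 2 and 1 of 19 for ligands, 9 and 3 of 45 for receptors, 2 and 4 of 41 for inhibitors, 1 and 3 of 23 for Smad transducers, and 4 and 5 of 45 for targets. Of 66 regions tested between stages, 4 ranked higher at E12, at Rgmb, Smad3, Id2 and Hey1 (beside 6.52%), and 2 later, at Bmp6 and Acvr2a (beside 7.56%). No adjusted p was under 0.05 for any of these in the exact permutation tests.

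Marker genes were counted in the same way, since the label of each cell type has to be read from the lists. Their counts are to be read beside the shares of all regions, 65.5% with Sox2-EGFP+ peaks alone and 5.63% with Sox2-EGFP- peaks alone, and, called at E14.5 and E16, 8.50% and 10.6%. Of 102 regions of 6 prosensory genes (most at Sox2, with 34), 84 had Sox2-EGFP+ peaks alone (82.4%) and 5 Sox2-EGFP- peaks alone (4.90%), and at E14.5 and E16 11 of 52 ranked higher in Sox2-EGFP+ (21.2%) and 3 in Sox2-EGFP- samples (5.77%). Their peaks within the first 7500 numbered 7 and 12 at E12, 5 and 5 at E14.5 and 3 and 3 at E16 in Sox2-EGFP+ lists, and 3 in each Sox2-EGFP- list. For 3 medial floor genes (most at Lgr5, with 7) 13 of 17 regions had Sox2-EGFP+ peaks alone (76.5%) and 1 Sox2-EGFP- peaks alone (5.88%), with 2 and 1 of 9 called, and first peaks of 2, 1, 2, 2, 0 and 2 against 0, 0 and 1. For 4 roof and lateral nonsensory genes (most at Otx2, with 7) these were 13 and 2 of 17 (76.5% and 11.8%), with 0 and 0 of 8 called, and first peaks of 0, 0, 1, 0, 1 and 1 against 0, 0 and 0.

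At E14.5 and E16 the otic mesenchyme and endothelial lists had calls toward Sox2-EGFP- cells and none toward Sox2-EGFP+ cells. Of 26 regions of 6 otic mesenchyme genes (most at Tbx18, with 9), 4 had Sox2-EGFP+ peaks alone (15.4%) and 11 Sox2-EGFP- peaks alone (42.3%), and at E14.5 and E16 14 of 24 ranked higher in Sox2-EGFP- (58.3%) and 0 in Sox2-EGFP+ samples. Their peaks within the first 7500 of a list were 0, 1, 0, 0, 0 and 0 in Sox2-EGFP+ lists and 3, 4 and 4 in Sox2-EGFP- lists. For 4 endothelial genes (most at Cdh5, with 17) 21 of 30 regions had Sox2-EGFP+ peaks alone and 4 Sox2-EGFP- peaks alone (13.3%), with 0 and 4 of 16 called, and first peaks of 0, 1, 0, 0, 0 and 0 against 1, 0 and 1. Of 4 macrophage genes, 3 were in the annotation, each with a region, Spi1 was not found under that symbol, and all 5 regions (3 at Ptprc) had Sox2-EGFP+ peaks alone, with 0 and 0 of 1 called and 0 first peaks in every list. Of 3 glial genes (most at Sox10, with 3) 6 of 7 regions had Sox2-EGFP+ peaks alone (85.7%) and 0 Sox2-EGFP- peaks alone, with 1 and 0 of 4 called, and first peaks of 1, 1, 1, 3, 0 and 0 against 0, 0 and 0. In bulk samples a larger share of cells with an open site and more opening per cell cannot be told apart. The part of mesenchymal, endothelial or other cells in the Sox2-EGFP- regions of Bmp4, Bmpr1b, Smad6 and Smad7 was not tested.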

How the data were processed

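Tools named for the work of the authors are Trim Galore (trimming), Bowtie2 (alignment to mm9), Picard and SAMtools (removal of duplicate and mitochondrial reads), MACS2 (peaks, sample by sample) and bedtools, with no versions, and the methods of the study add BEDOPS for keeping peaks shared within a cell type and removing artefact regions. The deposited fold enrichment is a ratio (fold) of the summit pileup over local background, computed by the authors in each sample. The deposited -log10 p and -log10 q of each peak are those the authors obtained from MACS2 for that sample. Peaks of chromosomes 1 to 19, X and Y at most 100 bp apart were merged into regions. Nearest starts were taken from 51733 protein-coding transcripts of GENCODE for mm9, and a start region reached from 1000 bp upstream to 100 bp downstream.

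Ranks of -log10 p were limited to a common list length, with the next rank for unlisted regions. Mean log2 ranks were compared by two-sided exact permutation tests with Benjamini-Hochberg adjustment over all regions tested. A region was called where ranks did not overlap between groups. For each gene, the regions named are those over a start, the best distal region of each cell type, the region of 1 cell type in the most samples, and every called region; others named were chosen after their values were seen. The main tests are unpaired, and the same stage and number made a pair in the alternative: E16 samples share a batch by number, Sox2-EGFP+ replicates were 1 litter each, and the study sorted Sox2-EGFP- cells alongside in some cases, although it does not name the litter of each number. At E16, the difference between numbers 1 and 2 had a Pearson r of 0.188 between the cell types across 68675 regions, which are not replicates. Alternatives were another q threshold, merging distance, summit windows, nearest starts within 100 kb or of any transcript, full or equal lists, rank by fold enrichment or as a share of the list, subsets of stages or batches, a replicate block, regions without promoters, and each sample left out. Subsets without the longest lists and without the samples with opposite tags, and E14.5 and E16 lists in full, were added after seeing the data.

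Python 3.11.15, NumPy 2.4.6, SciPy 1.17.1, matplotlib 3.10.9 and bedtools 2.31.1 were used, and the steps were tested on simulated data. The members and gene lists were chosen with earlier results of these data known. The depth of each sample is not in the lists.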

Additional observations from a re-analysis of the deposited data

Results flagged for a closer look

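At 2 regions every Sox2-EGFP- sample lay on one side of the Sox2-EGFP+ samples at E14.5 and on the other side at E16, by mean log2 rank in Sox2-EGFP- less Sox2-EGFP+ samples. For Bmp2 at 2.67 kb the difference was -0.21 at E14.5 and 0.38 at E16, and for Inhba at 0.541 kb it was -1.46 at E14.5 and 0.85 at E16. Negative values mean that Sox2-EGFP- ranked higher. E14.5 has 1 Sox2-EGFP- sample, 3 of the 4 E16 samples carry tags that go against their titles, and the difference between stages was not tested. The 2 are 2.41% of the 83 regions tested at E14.5 and E16, beside 2.46% of all 38395, and 14 of the 83 had the same direction at both stages (16.9%, beside 22.2%).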

How the results depend on the processing

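The share of regions with Sox2-EGFP+ peaks alone was 71.4% and moved beyond its interval with E14.5 and E16 lists at a common length of 22900 (51.8%) and without both of the longest lists (60.8%, chosen after seeing the data). It was 71.4% with E14.5 and E16 lists in full (also chosen after seeing the data), 72.7% with all 9 lists at 7500, 72.4% with E16 alone and 71.4% to 72.4% with each sample left out. Ranked higher in every Sox2-EGFP+ sample were 0 regions, with ranks by fold enrichment 1 of 30 (beside 0.602% of all regions tested), with rank as a share of list length 1 of 140 (1.08%), with E14.5 and E16 alone 6 of 83 (8.50%), with E16 alone 16 of 68 (7082 of 35411), without samples whose tags go against their titles 1 of 21 (4.03%), and 0 to 1 with a sample left out. Ranked higher in every Sox2-EGFP- sample were 0, and in the same order 1 (beside 2.11%), 4 (2.71%), 5 (10.6%), 19 (24.3%), 2 (17.2%) and 0 to 1, with 1 of 22 also without the first batch (6.53%) and 1 of 20 without the longest lists (4.26%). The 0 counts by two-sided exact permutation test had 1 region at an unadjusted p under 0.05. Ranked higher in both E12 samples were 3, with rank as a share 0, without promoters 1, and 3 to 13 with a sample left out (12 of 17 without E12 number 1, beside 26.8% of all regions tested, and 13 of 33 without E12 number 2, beside 24.2%, where 1 sample stands for E12). Ranked higher in later samples were 0, with rank as a share 26 and without the longest lists 1. The causes were not tested.

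In the replicate block, with samples of the same stage and number paired across cell types, the share was 72.2%, and 8 of 79 regions ranked higher in Sox2-EGFP+ (beside 12.7% of all regions tested) and 10 in Sox2-EGFP- samples of every pair (beside 17.6%). Beside the 7 regions named in the text, the block changed no other call of E14.5 and E16 samples. Assignment to genes depended on the starts used: with starts of any transcript 69 regions were left (Bmp4 1, Bmp2 3, Smad7 9), and within 100 kb 95. The regions Bmp2 -234 kb, Bmp4 -138 kb, Bmpr1b 112 kb and Inhba 303 kb were lost in both, Smad7 -72.0 kb, -24.8 kb and its start in the first alone, and Smad6 126 kb and 110 kb in the second alone. With summit windows, regions with Sox2-EGFP- peaks alone numbered 3 in place of 1 at Bmp4, Bmpr1a and Inhba, and 1 at Nog and 2 at Smad6 in place of 0. Of the counts per gene, 194 of those with Sox2-EGFP+ peaks alone stayed within 1.5 times and 36 moved, and 201 and 29 of those with Sox2-EGFP- peaks alone. The lists hold no reads, so a site missing from the short E12 lists is not shown to be closed, and the E14.5 Sox2-EGFP- group has 1 sample.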
